A study of Danio rerio with 9 samples.

Results

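The proteasome genes were taken as every gene whose Ensembl symbol, with case ignored, begins with PSMA, PSMB, PSMC, PSMD, PSME, PSMF or PSMG followed by a digit. The rule found 59 genes of the 32520 in the expression table, of which 29201 carried a symbol. They comprised 10 alpha and 7 beta subunits of the core particle, 7 ATPases and 14 non-ATPase subunits of the regulatory particle, 9 immune subunits, 4 other activators and inhibitors, 6 assembly chaperones and 2 proteins that only share the symbol stem. The libraries were prepared from polyA RNA of whole AB wild-type zebrafish larvae at 5 days of age, with 3 pools of larvae in each of 3 groups. Ctrl larvae were not microinjected. SHMO and SBMO larvae had received 4.6 nL of sialylated human or sialylated bovine milk oligosaccharides at 100 mmol/L in Danieau solution, given by yolk injection at 4.7 hpf. No saline-injected pool was among the 9 libraries, so the injection itself and the oligosaccharides cannot be told apart in a comparison with Ctrl.

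The proteasome degrades proteins that carry a ubiquitin chain. Its barrel-shaped core is built of alpha rings, which gate the entrance, and beta rings, in which PSMB5, PSMB6 and PSMB7 hold the proteolytic sites. The regulatory particle binds the ubiquitin chain, removes it and threads the substrate into the core with its ring of PSMC ATPases. In immune cells and after interferon signalling, PSMB8, PSMB9 and PSMB10 take the places of the constitutive catalytic subunits, and the PSME1 and PSME2 activator can cap the core, which shapes the peptides available for antigen presentation. In mammals the constitutive subunits are known to be regulated together, mainly through the transcription factor NFE2L1.

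Levels were read in TPM, a unit of transcript abundance that is corrected for transcript length and so allows genes to be compared with each other. The table holds no read counts, so the depth behind each value is unknown from it. A difference between groups is given as log2(FC), on the scale of log2(TPM + 0.1) after the libraries were put on a common scale, and was tested with limma across the 19051 genes that averaged 1 TPM or more over the 9 pools, with Benjamini-Hochberg adjustment over all of them. A gene is called here where its adjusted p was 0.05 or less and its log2(FC) was 0.58 or more away from 0, and passed the test at that adjusted p whatever the size. Of the 59 proteasome genes 53 were tested, and the 6 below the minimum mean level were all immune subunits.

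Across all genes, 3.58% were called higher and 5.32% lower in SHMO than in Ctrl, 8.31% higher and 11.5% lower in SBMO than in Ctrl, and 1.83% higher and 2.74% lower in SBMO than in SHMO. Without the scaling between libraries, SHMO against Ctrl gave 879 genes higher and 794 lower in place of 682 and 1013, and SBMO against SHMO gave 258 and 617 in place of 349 and 522. On the first principal component, the SHMO 1 pool lay at -21.1 while SHMO 2 and SHMO 3 lay at 36.0 and 34.0, and the Ctrl pools ran from -79.1 to -46.4. Summed markers of whole tissues also differed between pools. The exocrine pancreas markers summed to 2745 to 5122 TPM in Ctrl, to 1538, 103 and 88.2 TPM in SHMO 1, 2 and 3, and to 54.1 to 358 TPM in SBMO. The 13 neuron markers summed to 1313 to 1942 TPM in Ctrl, 2083 to 2823 TPM in SHMO and 2657 to 3100 TPM in SBMO. In the same order of groups, liver markers summed to 5636 to 8026, 5802 to 9954 and 1903 to 4182 TPM. Skin markers summed to 17059 to 21360, 12668 to 16315 and 12513 to 14212 TPM. Eye markers summed to 6336 to 7533, 6168 to 8258 and 8303 to 9451 TPM. The sums of skeletal muscle markers overlapped, at 28033 to 39747, 35310 to 38450 and 33831 to 40952 TPM. In whole-body RNA, fewer cells of a type and less RNA per cell cannot be told apart.

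Most proteasome genes were expressed at similar levels in the 3 groups. In SHMO against Ctrl, 1 of the 53 genes tested was called higher (PSMD1) and 2 were called lower (PSMB10 and a PSME4 gene), and 8 members were at an unadjusted p of at most 0.05, beside 29.4% of all genes tested. In SBMO against Ctrl none was called higher and 1 was called lower (PSMB10), with 5 members at an unadjusted p of at most 0.05, beside 39.4% of all genes. In SBMO against SHMO, 1 was called higher (the same PSME4 gene) and none lower, with 4 members at that unadjusted p, beside 21.9% of all genes. The genes that passed the test whatever their size were the same 3 in SHMO against Ctrl, 1 higher (PSMG1) and 2 lower (PSMB10 and PSMD7) in SBMO against Ctrl, and the PSME4 gene in SBMO against SHMO, where 9.46%, 22.4% and 4.63% of all genes passed. The median log2(FC) of the 53 genes was 0.08, 0.07 and -0.01 in the 3 comparisons, beside 0.04, 0.05 and 0.02 over all genes tested.

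The intervals show how much room the data leave for a difference. In SHMO against Ctrl, 41 of the 53 proteasome genes had a 95% interval of the log2(FC) that lay wholly within 0.58 on either side of 0, beside 24.1% of all genes tested. In SBMO against Ctrl this held for 39 of them beside 21.5% of all genes, and in SBMO against SHMO for 38 beside 28.4%. The pools of a group also lay close together for these genes. The median standard deviation (SD) within a group was 0.14 on the log2 scale over the 38 core and regulatory particle genes, against 0.246 over the 16117 genes tested that had at least the lowest mean level of these 38. That lowest level was the 2.21 TPM of psma6l, so most genes tested were taken in and the genes were not matched by level. The part of expression level in the close pools and narrow intervals was not tested.

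**Figure D1:**
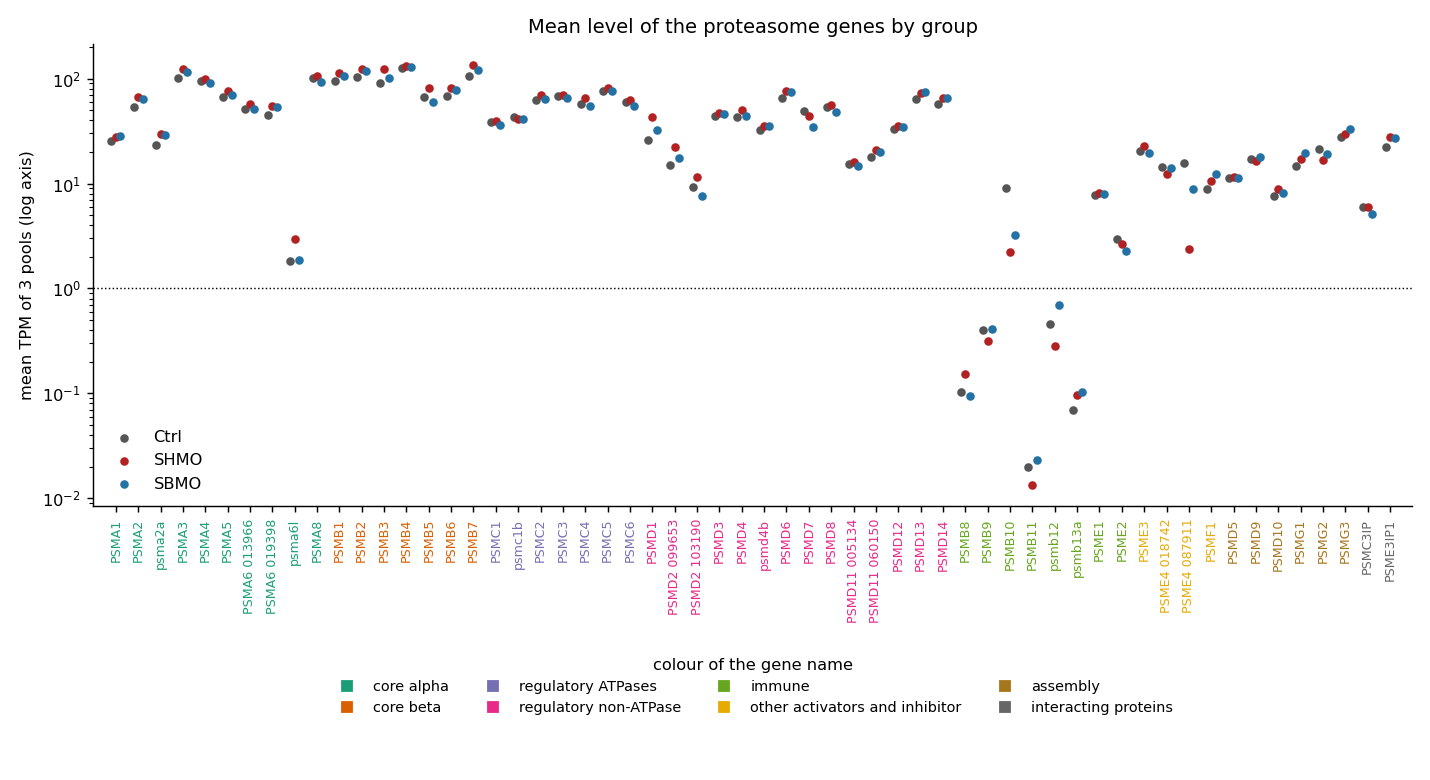
Mean TPM of 3 pools (log axis) for each proteasome gene above 0 in any pool, in Ctrl, SHMO and SBMO, with gene names coloured by role, genes of the same symbol told apart by the end of their Ensembl ID, and a dotted line at 1 TPM. The constitutive subunits lay mostly between 10 and 135 TPM, whereas PSMB8, PSMB9, psmb12 and psmb13a lay below 1 TPM in each group, and PSMB10 and the PSME4 gene ENSDARG00000087911 show the widest gaps between groups.

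The 38 constitutive genes of the core and regulatory particles summed to 2226, 1898 and 2332 TPM in Ctrl 1, 2 and 3, to 2383, 2641 and 2352 TPM in SHMO and to 2410, 2097 and 2269 TPM in SBMO. In deposited TPM the SHMO sums lay above all Ctrl sums, and the SBMO sums overlapped both. After the scaling between libraries the order turned for Ctrl 3: its sum was 2360 TPM, above SHMO 1 and SHMO 3 at 2252 and 2281 TPM, and SHMO overlapped with Ctrl (exact permutation p = 0.3, unadjusted). The mean was 2152 ± 226 TPM in Ctrl, 2459 ± 159 TPM in SHMO and 2259 ± 157 TPM in SBMO (SD, n = 3 pools). In an exact two-sided permutation test of deposited TPM, p was 0.1 for SHMO against Ctrl, 0.6 for SBMO against Ctrl and 0.3 for SBMO against SHMO (adjusted p = 0.13, 0.6 and 0.33 over 12 such tests of sums and shares). With 3 pools against 3, 0.1 is the smallest p that this test can give.

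Of these 38 genes, the scaled levels of the 3 SHMO pools lay above those of the 3 Ctrl pools for 9 and below for none, where 17.3% and 17.0% of all genes did so. For SBMO against Ctrl the groups were apart for 5 genes higher and 1 lower, beside 23.5% and 20.9% of all genes, and for SBMO against SHMO for none higher and 4 lower, beside 14.3% and 14.5%. The 9 genes higher in SHMO than in Ctrl and the 4 lower in SBMO than in SHMO were near the background share. The counts in the other cases, 0, 5, 1 and 0 of the 38, were below it. Many of the 38 genes rose and fell together between pools, so they are not separate observations and no difference is read from these counts. The 38 estimates were positive for 31 genes in SHMO against Ctrl and for 26 in SBMO against Ctrl, with medians of 0.12 and 0.08, and those 2 comparisons share the Ctrl pools.

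The Ctrl 3 pool stood apart from the other Ctrl pools over all genes as well as for these. On the first principal component it lay at -79.1, against -46.4 in Ctrl 1 and -58 in Ctrl 2. It was the highest of the Ctrl pools for 30 of the 38 genes. Over all genes tested it was the highest for 41.8% and the lowest for 42.4%. For the 38 genes its median deviation from the mean of the 9 pools was 0.09 on the log2 scale, against -0.12 and -0.14 in Ctrl 1 and Ctrl 2. For 6 of the 38 genes, in contrast, Ctrl 3 was the lowest Ctrl pool on the scaled level. These were PSMD1, both PSMD2 genes, PSMD3, PSMD11 ENSDARG00000060150 and PSMB5. The gap was small for PSMB5, at -0.04 against -0.02 in Ctrl 1 and in Ctrl 2. Likewise, SHMO 2 was the highest SHMO pool for 28 of the 38 genes, beside 33.0% of all genes.

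**Figure D2:**
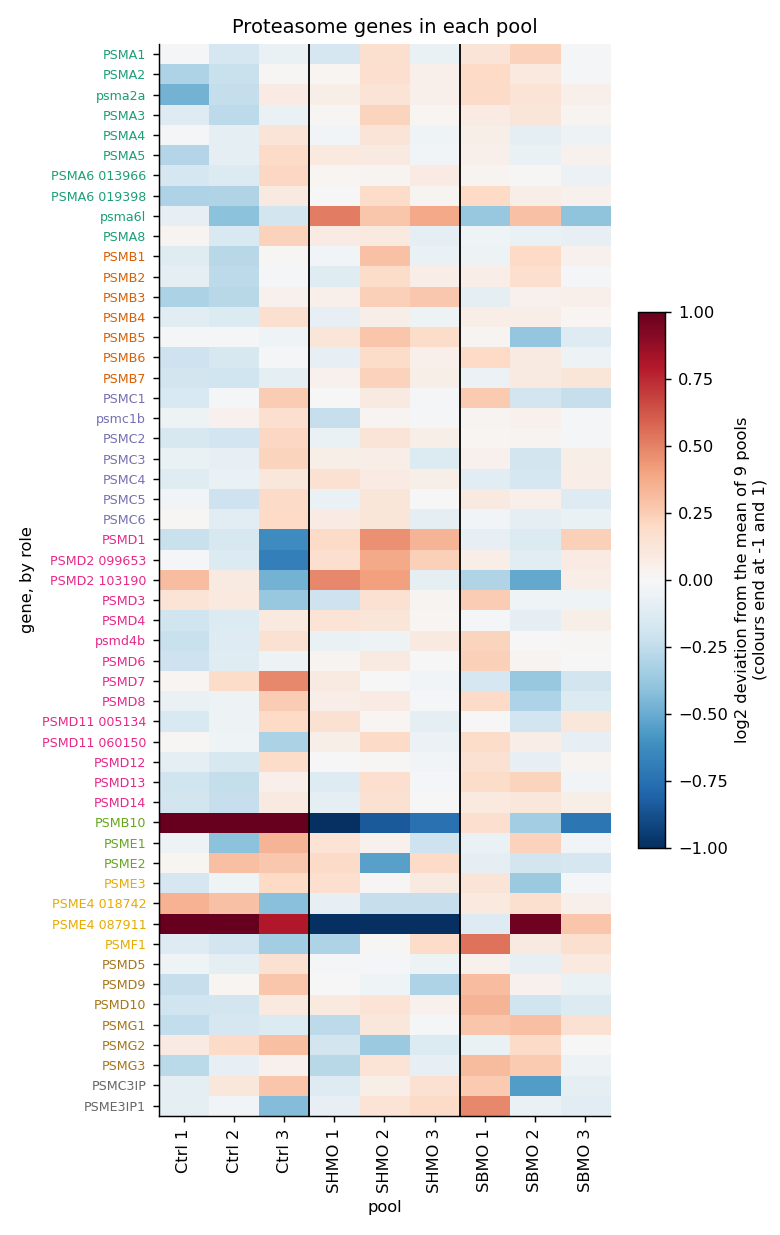
Deviation of each tested proteasome gene from its mean over the 9 pools on the log2 scale (red above, blue below; colours end at -1 and 1), with pools in columns and genes ordered by role. Ctrl 1 and Ctrl 2 are mostly pale blue in the core and regulatory genes, Ctrl 3 is mostly pale red, and PSMB10 and PSME4 ENSDARG00000087911 show the deepest colours.

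Among the alpha subunits, none of the 10 passed the test in any comparison, and their median log2(FC) was 0.18 in SHMO and 0.13 in SBMO against Ctrl. PSMA3 had the highest level of them. It stood at 110.20, 87.54 and 105.32 TPM in Ctrl, at 118.69, 137.51 and 116.95 TPM in SHMO and at 121.01, 112.64 and 115.54 TPM in SBMO. Each injected pool lay above each Ctrl pool, but the differences of 0.24 and 0.23 did not pass the test (limma, Benjamini-Hochberg adjusted p = 0.212 and 0.177). The lowest level was that of psma6l, whose symbol marks it as a PSMA6-like gene. It stood at 2.15, 1.46 and 1.82 TPM in Ctrl, 3.21, 2.73 and 2.86 TPM in SHMO and 1.64, 2.41 and 1.59 TPM in SBMO, and its log2(FC) of 0.62 in SHMO against Ctrl did not pass (adjusted p = 0.113, limma).

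PSMA6 was present as a pair of genes at nearly equal levels. ENSDARG00000013966 made up 53.2 to 54.0% of their summed TPM in Ctrl, 48.5 to 52.1% in SHMO and 48.2 to 50.4% in SBMO. The gene annotated as PSMA8, which encodes the testis-specific alpha subunit in mammals, stood at 101 ± 16.1 TPM in Ctrl, a level among the highest of the alpha genes. A RefSeq table of the zebrafish genome lists psma7, the somatic counterpart, as a synonym of psma8, and no PSMA7 symbol was found by the rule.

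The 7 constitutive beta subunits had a median log2(FC) of 0.19 against Ctrl in either injected group, and none passed the test. PSMB4, a structural beta subunit with the highest level of all 59 genes, stood at 126.71, 107.89 and 140.20 TPM in Ctrl, 126.66, 139.61 and 126.25 TPM in SHMO and 136.39, 123.29 and 129.96 TPM in SBMO. Its groups overlapped, and the log2(FC) was 0.01 (95% interval -0.27 to 0.28) in SHMO and 0.08 (-0.19 to 0.35) in SBMO against Ctrl. PSMB3, another structural subunit, was the beta gene with the largest estimate, 0.37 in SHMO against Ctrl (adjusted p = 0.105, limma), and its SHMO pools, at 112.75 to 128.85 TPM, lay above the Ctrl pools, at 79.56 to 104.47 TPM.

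The 3 constitutive catalytic genes, PSMB5, PSMB6 and PSMB7, summed to 241 ± 17.1 TPM in Ctrl, 297 ± 23.0 TPM in SHMO and 260 ± 19.3 TPM in SBMO (SD, n = 3 pools). For the sum of deposited TPM, SHMO did not overlap with Ctrl or with SBMO, and the exact permutation test gave its smallest p, 0.1, in both cases (adjusted p = 0.13). After the scaling between libraries SHMO stayed clear of Ctrl, at 266.7 to 305.7 against 236.1 to 249.4 TPM, but overlapped with SBMO, at 256.6 to 268.5 TPM (exact permutation p = 0.2, unadjusted). PSMB5, which carries the chymotrypsin-like site, was at 77.95, 86.72 and 79.24 TPM in SHMO, at 72.05, 62.52 and 64.93 TPM in Ctrl and at 70.88, 47.90 and 62.57 TPM in SBMO. Its log2(FC) in SBMO against SHMO was -0.36 (adjusted p = 0.156, limma), so this gap between the injected groups did not pass the test over all genes.

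The 7 ATPase genes, which form the ring that unfolds substrates, showed the least difference of the constitutive roles. Their log2(FC) ran from -0.12 to 0.13 in SHMO and from -0.10 to 0.05 in SBMO against Ctrl, with medians of 0.00 and -0.04. All 7 had intervals within 0.58 on either side of 0 in both comparisons, and the smallest adjusted p among them was 0.525 and 0.601 (limma). PSMC5, the ATPase with the highest level, stood at 81.31, 62.54 and 86.50 TPM in Ctrl, 77.29, 88.66 and 79.11 TPM in SHMO and 84.07, 73.89 and 71.03 TPM in SBMO. The groups overlapped, and the values differed more within Ctrl than between the group means.

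**Figure D3:**
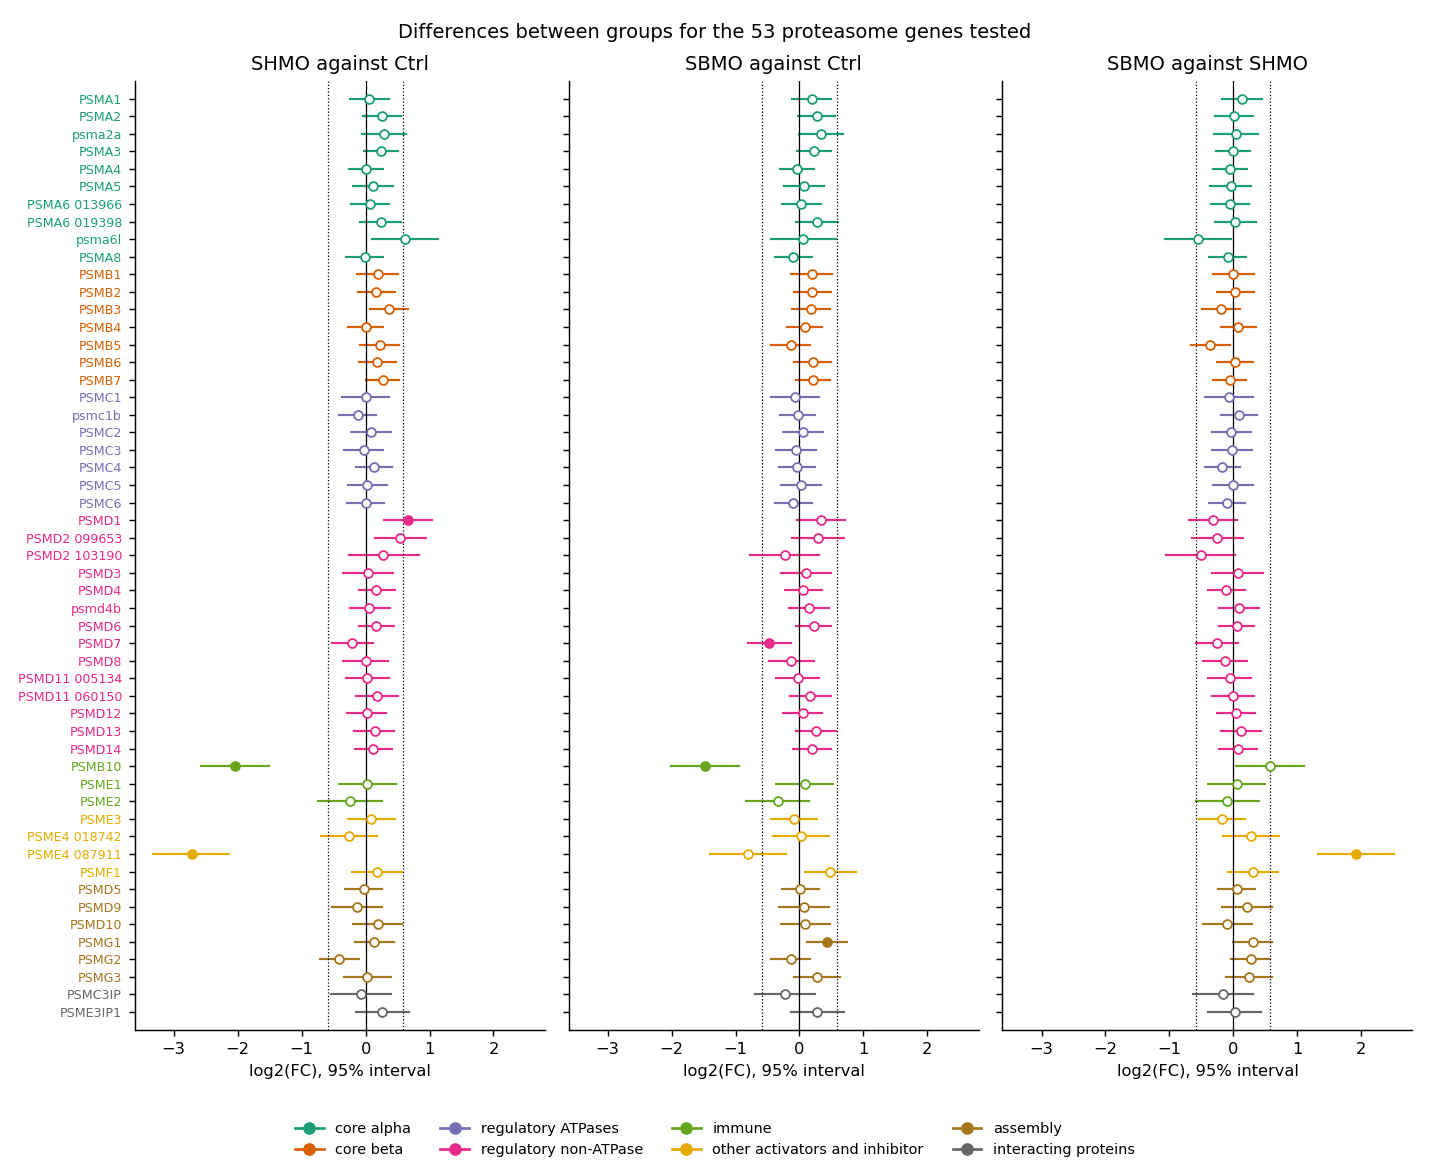
Log2(FC) with its 95% interval for the 53 proteasome genes tested in the 3 comparisons, coloured by role. Filled points passed the limma test at an adjusted p of at most 0.05, and dotted lines mark 0.58 on either side of 0. Most intervals lie within the dotted lines, and PSMB10 and PSME4 ENSDARG00000087911 lie far outside in SHMO against Ctrl.

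Of the 14 non-ATPase subunits of the regulatory particle, 1 passed the test as higher in SHMO and 1 as lower in SBMO against Ctrl. Over all genes tested, 9.46% and 22.4% passed in these comparisons. PSMD1, the large scaffold of the base, stood at 30.17, 27.32 and 20.78 TPM in Ctrl, at 39.19, 47.41 and 42.54 TPM in SHMO and at 31.65, 27.40 and 38.88 TPM in SBMO. Every SHMO pool lay above every Ctrl pool, while SBMO overlapped with Ctrl in TPM. After the scaling between libraries, the SBMO pools also lay above the Ctrl pools. The log2(FC) was 0.67 in SHMO against Ctrl (standard error 0.17, with an adjusted p of 0.0386 in limma) and 0.34 in SBMO against Ctrl (adjusted p = 0.159). The call for PSMD1 was close to the threshold. It was lost in 7 of 19 alternative analyses, with adjusted p between 0.035 and 0.144 over all 19, and in 5 of these 7 a single pool was left out: Ctrl 1 (adjusted p = 0.0711), Ctrl 2 (0.0627), Ctrl 3 (0.0936, with a log2(FC) of 0.52), SHMO 2 (0.144) or SHMO 3 (0.13).

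PSMD2, the other large scaffold of the base, was listed as a pair of genes, ENSDARG00000099653 and ENSDARG00000103190. RefSeq lists a single psmd2, and how reads were divided between the pair is not known, so their values are uncertain. The first stood at 18.93, 14.98 and 10.83 TPM in Ctrl, at 21.06, 24.33 and 21.43 TPM in SHMO and at 19.07, 15.17 and 18.83 TPM in SBMO. SHMO lay above Ctrl in every pool, as for PSMD1, but the log2(FC) of 0.54 did not pass the test (adjusted p = 0.0842, limma). Both PSMD2 genes together summed to 24.1 ± 6.91 TPM in Ctrl, 33.8 ± 3.45 TPM in SHMO and 25.3 ± 3.84 TPM in SBMO.

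PSMD7, a subunit of the lid that pairs with the deubiquitinase PSMD14, stood at 45.22, 43.86 and 57.05 TPM in Ctrl, 46.49, 43.62 and 41.74 TPM in SHMO and 37.69, 29.49 and 36.92 TPM in SBMO. All SBMO pools lay below all pools of the other groups. PSMD7 fell by 0.47 on the log2 scale in SBMO against Ctrl (adjusted p = 0.0459, limma), which is below the size asked for a call, and it passed the test in 8 of 19 alternatives (adjusted p from 0.0248 to 0.145). Leaving out Ctrl 2, Ctrl 3, any SBMO pool, SHMO 2 or SHMO 3 raised the adjusted p above 0.05. PSMD14 itself had a log2(FC) of 0.20 in the same comparison (95% interval -0.10 to 0.49).

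The non-ATPase subunit with the highest level was PSMD6, a scaffold of the lid. It stood at 66.47, 61.12 and 67.62 TPM in Ctrl, 76.46, 80.16 and 73.39 TPM in SHMO and 86.02, 67.49 and 71.76 TPM in SBMO. The SHMO pools lay above the Ctrl pools, as did the SBMO pools after the scaling between libraries. The log2(FC) of PSMD6, 0.17 in SHMO and 0.22 in SBMO against Ctrl, did not pass (adjusted p = 0.371 and 0.204, limma). The ubiquitin receptor PSMD4 was present as PSMD4 and psmd4b, with log2(FC) of 0.17 and 0.06 in SHMO and 0.06 and 0.15 in SBMO against Ctrl, all with intervals within 0.58 on either side of 0.

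Of the 9 immune genes, 3 were tested and 1, PSMB10, passed against Ctrl, beside 9.46% of all genes in SHMO and 22.4% in SBMO. PSMB8, PSMB9, psmb12 and psmb13a stood below 1 TPM in each of the 9 pools, PSMB11, the thymus-specific subunit in mammals, did not exceed 0.07 TPM, and psmb11b was listed at 0 throughout. PSMB9 stood at 0.44, 0.37 and 0.38 TPM in Ctrl, 0.21, 0.36 and 0.38 TPM in SHMO and 0.53, 0.30 and 0.39 TPM in SBMO, with overlapping groups. PSMB8 ran from 0.03 to 0.29 TPM, psmb12 from 0.12 to 0.90 TPM and psmb13a from 0.00 to 0.26 TPM over all pools. In the RefSeq table psmb13a, psmb8a, psmb12 and psmb9a follow one another between mhc1uba and tap2a, so these genes lie in the major histocompatibility complex (MHC). At such levels the table cannot show a difference between the groups.

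PSMB10 was the only immune catalytic gene above 1 TPM on average. It encodes the inducible counterpart of PSMB7 and stood at 8.62, 7.57 and 11.25 TPM in Ctrl, 1.99, 2.29 and 2.37 TPM in SHMO and 4.56, 2.85 and 2.38 TPM in SBMO. Every injected pool lay below every Ctrl pool, and the lowest SBMO pool lay just above the highest SHMO pool. PSMB10 fell by 2.05 on the log2 scale in SHMO against Ctrl (standard error 0.24, 0.242 times the Ctrl level, adjusted p = 0.00168) and fell by 1.48 in SBMO against Ctrl (0.36 times, adjusted p = 0.00655), both by limma with Benjamini-Hochberg adjustment. The injected groups differed by 0.57 (limma adjusted p = 0.2). Both calls against Ctrl held in all 18 alternative analyses that tested the gene, the largest adjusted p being 0.0102 and 0.0319, and a minimum mean of 5 TPM removed it from the test, its mean being 4.88 TPM.

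**Figure D4:**
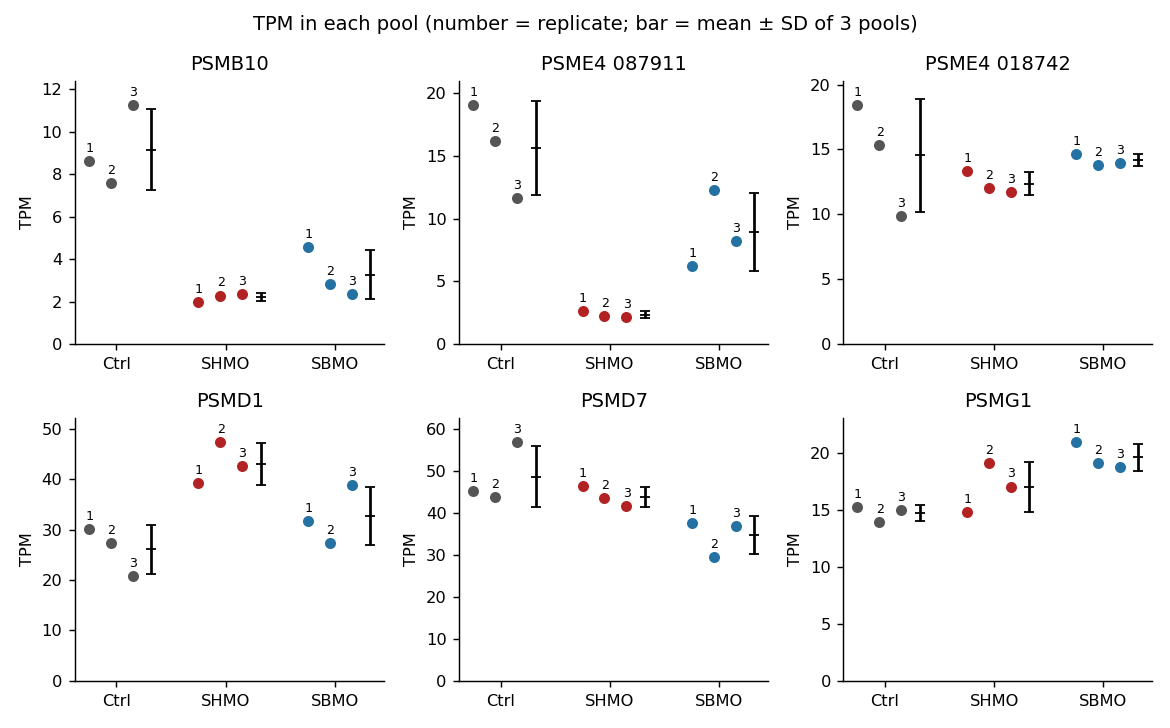
TPM in each of the 9 pools (points numbered by replicate) with the mean ± SD of 3 pools (bars) for PSMB10, both PSME4 genes, PSMD1, PSMD7 and PSMG1, each on an axis that starts at 0. All injected pools lie below the Ctrl pools for PSMB10, and the SHMO pools, at 2.15 to 2.65 TPM, lie far below the others for PSME4 ENSDARG00000087911 but not for PSME4 ENSDARG00000018742.

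As a share of the summed TPM of immune and constitutive catalytic genes, PSMB8, PSMB9, PSMB10, psmb12 and psmb13a together made up 3.80, 3.55 and 4.73% in Ctrl, 1.07, 0.906 and 1.1% in SHMO and 2.20, 1.67 and 1.28% in SBMO. The 3 groups did not overlap. In each pool PSMB10 supplied most of the immune sum, so this share is not a separate observation from that of PSMB10. The exact permutation test gave 0.1, its smallest p, in each of the 3 comparisons (adjusted p = 0.13).

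Neither activator subunit of the immune proteasome passed the test in any comparison. PSME1, with the highest mean level of the immune genes, stood at 8.11, 5.48 and 9.78 TPM in Ctrl, 9.09, 8.48 and 6.93 TPM in SHMO and 7.58, 8.52 and 7.74 TPM in SBMO. Its groups overlapped, with log2(FC) of 0.03 (95% interval -0.42 to 0.48) in SHMO and 0.08 (-0.36 to 0.53) in SBMO against Ctrl. PSME2 stood at 2.81, 2.98 and 3.07 TPM in Ctrl, 3.11, 1.83 and 3.03 TPM in SHMO and 2.45, 2.09 and 2.30 TPM in SBMO, with a log2(FC) of -0.34 in SBMO against Ctrl (adjusted p = 0.272, limma).

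Markers of leukocytes, in which immune subunits are typically expressed, were read beside PSMB10. Of 19 such genes found, 10 were tested, none passed in SHMO against Ctrl and 1, the macrophage and pigment cell receptor gene csf1ra, fell in SBMO against Ctrl (by 2.12 on the log2 scale, adjusted p = 0.0138, limma). Across all genes tested, 9.46% and 22.4% passed in these comparisons. The median log2(FC) of the 10 markers was -0.32 in SHMO and -0.21 in SBMO against Ctrl, beside 0.04 and 0.05 over all genes. In each comparison 7 of the 10 estimates were negative. The summed level of the 19 markers was 98.1 to 139 TPM in Ctrl, 117 to 165 TPM in SHMO and 74.7 to 134 TPM in SBMO. Most of it was lyz, the lysozyme gene of neutrophils and macrophages. The T-cell kinase gene lck did not exceed 0.38 TPM in any pool, and ptprc, which encodes the pan-leukocyte antigen CD45, stood at 0.95 to 0.99 TPM in Ctrl, 0.42 to 0.58 TPM in SHMO and 0.45 to 0.90 TPM in SBMO. The part of cell composition in the PSMB10 difference was not tested.

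**Figure D5:**
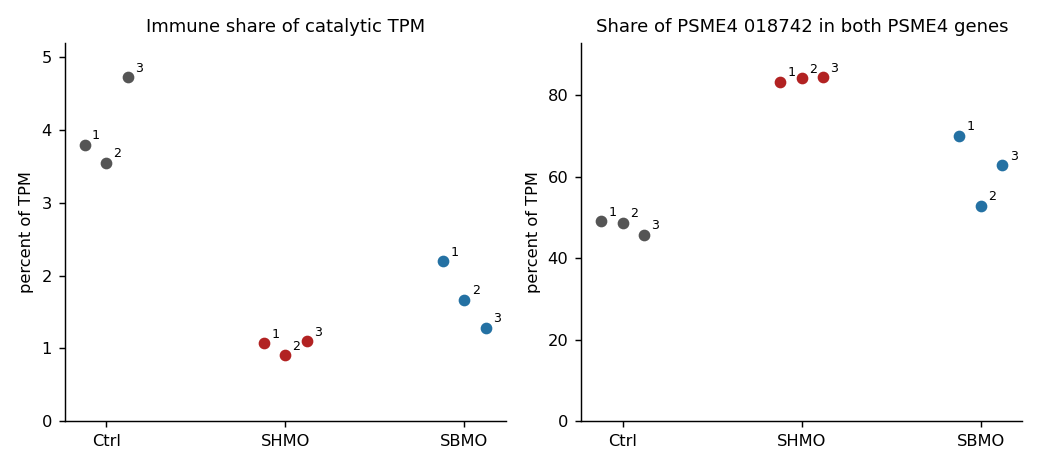
Left: percent of the summed catalytic TPM that came from the immune catalytic genes, per pool and group. Right: percent of the summed TPM of both PSME4 genes that came from ENSDARG00000018742. The immune share lies at 3.55 to 4.73% in Ctrl and at 0.906 to 2.2% in the injected pools, and the share of ENSDARG00000018742 is 83.4 to 84.5% in SHMO against 45.8 to 49.1% in Ctrl.

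PSME4 encodes the activator PA200, which caps the core particle without ubiquitin and is known in mammals for a role in the breakdown of acetylated histones. The file holds a pair of genes under this symbol, and which of them is psme4a or psme4b in RefSeq was not resolved. ENSDARG00000087911 stood at 19.07, 16.18 and 11.64 TPM in Ctrl, 2.65, 2.25 and 2.15 TPM in SHMO and 6.27, 12.30 and 8.26 TPM in SBMO. The SHMO pools lay below every other pool, whereas SBMO overlapped with Ctrl. It fell by 2.72 on the log2 scale in SHMO against Ctrl (standard error 0.27, 0.151 times the Ctrl level, limma adjusted p = 0.000829), and it was higher in SBMO than in SHMO by 1.92 (3.78-fold, adjusted p = 0.00641). Both calls held in all 19 alternatives.

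In SBMO against Ctrl the log2(FC) of this gene was -0.81 and did not pass (adjusted p = 0.0543, limma). It was called in 3 of 19 alternatives: without scaling between libraries (adjusted p = 0.047), with quantile normalization (0.0391) and without SBMO 2, the pool with the highest SBMO level (-1.10, adjusted p = 0.0353).

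ENSDARG00000018742, the other PSME4 gene, stood at 18.43, 15.36 and 9.85 TPM in Ctrl, 13.36, 12.02 and 11.70 TPM in SHMO and 14.68, 13.83 and 13.96 TPM in SBMO. Its groups overlapped in TPM except for SBMO above SHMO, with a log2(FC) of -0.26 (95% interval -0.69 to 0.18) in SHMO and 0.02 (-0.41 to 0.46) in SBMO against Ctrl. The share of ENSDARG00000018742 in the summed TPM of both was 49.1, 48.7 and 45.8% in Ctrl, 83.4, 84.2 and 84.5% in SHMO and 70.1, 52.9 and 62.8% in SBMO. The 3 groups did not overlap in this share (exact permutation p = 0.1 in each comparison, the smallest possible, adjusted p = 0.13). The share rests largely on the level of ENSDARG00000087911, so it is not a separate observation from that gene. The sum of both genes was 30.2 ± 8.09 TPM in Ctrl, 14.7 ± 1.15 TPM in SHMO and 23.1 ± 2.70 TPM in SBMO. If reads of near-identical stretches were divided between them, these shares carry that uncertainty.

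The remaining regulators of the core, PSME3 and PSMF1, did not pass the test in any comparison. PSME3, the nuclear activator subunit, had the highest mean level of this role and stood at 19.73, 18.78 and 23.42 TPM in Ctrl, 24.48, 21.99 and 22.61 TPM in SHMO and 23.15, 14.81 and 20.56 TPM in SBMO, with overlapping groups. PSMF1, an inhibitor of the core, stood at 10.14, 8.43 and 7.95 TPM in Ctrl, 8.72, 10.94 and 11.98 TPM in SHMO and 15.34, 10.14 and 11.61 TPM in SBMO. Its log2(FC) of 0.48 in SBMO against Ctrl (95% interval 0.09 to 0.88) did not pass the test (adjusted p = 0.072, limma), and its scaled SBMO levels lay above those of Ctrl in every pool.

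Among the 6 assembly chaperones, only PSMG1 passed the test, as higher in SBMO than in Ctrl, where 22.4% of all genes passed. PSMG1 and PSMG2 form the heterodimer that builds the alpha ring. PSMG1 stood at 15.28, 13.93 and 15.04 TPM in Ctrl, 14.84, 19.17 and 17.07 TPM in SHMO and 21.01, 19.15 and 18.81 TPM in SBMO, so that every SBMO pool lay above every Ctrl pool. The log2(FC) in SBMO against Ctrl was 0.43 (standard error 0.14, adjusted p = 0.0494, limma), under the size asked for a call, and it passed the test in 6 of 19 alternatives (adjusted p from 0.0363 to 0.131). Leaving out any of the 3 Ctrl pools, any of the 3 SBMO pools, SHMO 2 or SHMO 3 raised the adjusted p above 0.05.

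PSMG2, its partner, moved the other way in the estimates for SHMO. It stood at 21.32, 19.94 and 22.68 TPM in Ctrl, 17.43, 15.26 and 17.49 TPM in SHMO and 18.32, 19.84 and 18.97 TPM in SBMO. Every SHMO pool lay below every Ctrl pool, but the log2(FC) of -0.42 did not pass (adjusted p = 0.0828, limma). PSMG3, the assembly gene with the highest level, stood at 26.35, 26.12 and 29.95 TPM in Ctrl, 25.66, 34.29 and 28.59 TPM in SHMO and 37.69, 32.72 and 28.70 TPM in SBMO, and the base chaperones PSMD5, PSMD9 and PSMD10 had log2(FC) between -0.14 and 0.19 against Ctrl in both comparisons.

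The symbol rule also took in a pair of genes that are not subunits. PSME3IP1, which encodes a protein that binds PSME3, stood at 25.54, 22.98 and 18.44 TPM in Ctrl, 25.03, 29.24 and 29.56 TPM in SHMO and 35.96, 22.23 and 23.59 TPM in SBMO. PSMC3IP, a meiotic recombination factor, was near 5.67 TPM over all pools. Neither passed the test in any comparison.

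Genes outside the rule that work with the proteasome gave a mixed picture. Of 10 assembly helpers and proteins that bind the base, none was called against Ctrl, and 1, TXNL1, a thioredoxin-like protein bound to the regulatory particle, passed in SBMO against Ctrl at 0.54 (adjusted p = 0.0276, limma). In that comparison 22.4% of all genes passed, and 8.31% were called higher and 11.5% lower. In SHMO against Ctrl, 3.58% of all genes were called higher and 5.32% lower. POMP, the maturation chaperone that acts with the beta rings, stood at 85.91, 72.70 and 90.10 TPM in Ctrl, 70.57, 91.25 and 76.27 TPM in SHMO and 98.50, 69.82 and 67.62 TPM in SBMO, with a log2(FC) of -0.13 and -0.07 against Ctrl. Its level lay within the range of the core beta genes.

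A list of 16 genes taken as regulators of proteasome genes included the heat shock factors. In SHMO against Ctrl, 1 was called higher (HSF2) and 2 lower (NFE2L1 and hsf1). In SBMO against Ctrl, none was called higher and 2 lower (keap1a and BACH1). In SBMO against SHMO, 1 was called lower (HSF2). Of the calls in SHMO against Ctrl, only that of NFE2L1 lay outside the heat shock factors. Beside these, 3.58% of all genes were called higher and 5.32% lower in SHMO against Ctrl. The shares were 8.31% and 11.5% in SBMO against Ctrl, and 2.74% were lower in SBMO against SHMO. The median log2(FC) of the 16 genes was -0.29 against Ctrl in both injected groups, beside 0.04 and 0.05 over all genes. The gene with the symbol NFE2L1 (ENSDARG00000030616), whose mammalian counterpart drives constitutive subunits when proteasome activity is short, stood at 17.85, 16.25 and 23.87 TPM in Ctrl, 6.32, 2.96 and 4.11 TPM in SHMO and 4.34, 14.22 and 12.60 TPM in SBMO. Every injected pool lay below every Ctrl pool. It fell by 2.20 on the log2 scale in SHMO against Ctrl (standard error 0.44, adjusted p = 0.0167, limma), a call lost without Ctrl 3 (adjusted p = 0.0622), SHMO 2 (0.0692) or SHMO 3 (0.0664), and the -1.02 in SBMO did not pass (adjusted p = 0.11).

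The paralogue nfe2l1b stood at 5.32, 4.82 and 5.34 TPM in Ctrl, 6.97, 5.65 and 5.37 TPM in SHMO and 4.75, 3.40 and 4.63 TPM in SBMO, with no difference that passed. In SHMO against Ctrl the median log2(FC) of the constitutive subunits was 0.12, beside 0.04 over all genes tested. A link between the NFE2L1 level and the subunits was not tested. Among the regulators of the oxidative response, keap1a, the repressor of NFE2L2, stood at 7.79, 6.83 and 7.97 TPM in Ctrl, 6.81, 5.28 and 5.75 TPM in SHMO and 3.33, 3.27 and 5.30 TPM in SBMO. It fell by 0.92 in SBMO against Ctrl (adjusted p = 0.0138, limma), a call lost without SBMO 2 (adjusted p = 0.0565). BACH1, a repressor of antioxidant genes, was the other gene called lower in SBMO against Ctrl (-1.21, adjusted p = 0.0271), and its call was lost in 5 of 18 alternatives, all of which left out a pool: Ctrl 1 (adjusted p = 0.0534), Ctrl 2 (0.0508), Ctrl 3 (0.0908), SBMO 1 (0.0677) or SBMO 2 (0.0697).

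The heat shock factors, which act on chaperone genes and bear on protein breakdown through them, moved apart in SHMO. HSF2 stood at 11.29, 9.33 and 8.27 TPM in Ctrl, 34.90, 38.77 and 39.94 TPM in SHMO and 8.52, 10.32 and 14.11 TPM in SBMO. Only the SHMO pools were high, by 1.91 on the log2 scale against Ctrl (adjusted p = 0.000848, limma), and SBMO fell by 1.72 against SHMO (adjusted p = 0.00277). In contrast, hsf1 stood at 8.17, 7.18 and 6.39 TPM in Ctrl, 4.23, 3.83 and 3.95 TPM in SHMO and 6.33, 3.52 and 4.92 TPM in SBMO. It fell by 0.90 in SHMO against Ctrl (adjusted p = 0.0184, limma), a call lost without Ctrl 1 (0.0586), Ctrl 2 (0.0626), SHMO 2 (0.0755) or SHMO 3 (0.074).

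Of 30 genes listed under ubiquitin supply and delivery, 1 was called higher in SHMO against Ctrl and the same gene lower in SBMO against SHMO. None was called in SBMO against Ctrl, and the medians were 0.07, 0.02 and 0.05 in that order. The shares of all genes were 3.58% higher in SHMO against Ctrl and 2.74% lower in SBMO against SHMO. In SBMO against Ctrl, 8.31% of all genes were called higher and 11.5% lower. None of the other listed genes was called in any comparison. The gene called from the list was hsp70l, an inducible chaperone. It stood at 8.77, 7.41 and 5.99 TPM in Ctrl, 16.72, 19.66 and 16.51 TPM in SHMO and 6.79, 3.94 and 5.19 TPM in SBMO, which gave 1.19 in SHMO against Ctrl (adjusted p = 0.00691, limma) and -1.66 in SBMO against SHMO (adjusted p = 0.00277).

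Of 28 genes of antigen presentation and the interferon response, 13 were tested, and 1, SOCS1, a feedback inhibitor of cytokine signalling, was called lower in each comparison with Ctrl. Over all genes, 5.32% and 11.5% were called lower in SHMO and in SBMO against Ctrl. SOCS1 stood at 16.85, 14.41 and 17.26 TPM in Ctrl, 7.71, 3.67 and 4.81 TPM in SHMO and 5.82, 6.76 and 6.36 TPM in SBMO. All injected pools were low, by -1.69 in SHMO (adjusted p = 0.00402, limma) and -1.32 in SBMO (adjusted p = 0.00874). The median log2(FC) of the 13 genes was -0.36 and -0.42. The MHC class I gene mhc1uba, which neighbours psmb13a in RefSeq, was below the minimum level: it stood at 1.11, 0.91 and 1.93 TPM in Ctrl and was listed at 0 in all 6 injected pools. MHC class I genes are known to differ between individual zebrafish in which of them a haplotype carries. The labels give neither clutch nor haplotype, so a 0 here cannot be told apart from the absence of that gene in the larvae pooled. The immune subunit genes near it did not share this pattern. PSMB8, PSMB9 and psmb12 were above 0 in each of the 9 pools, and psmb13a was at 0.00 TPM only in SHMO 3 and SBMO 3. Whether haplotypes differed between the pools was not tested for these genes either. The beta-2 microglobulin gene b2m stood at 3.37, 3.24 and 4.53 TPM in Ctrl, 3.04, 1.56 and 1.73 TPM in SHMO and 3.50, 3.26 and 3.27 TPM in SBMO, and its log2(FC) of -0.90 in SHMO against Ctrl did not pass (adjusted p = 0.0514, limma).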

How the data were processed

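Libraries of 9 pools (3 Ctrl, 3 SHMO, 3 SBMO) were made with a stranded polyA kit. Per the study's methods and the submitters' processing notes, the authors trimmed the reads, aligned them with STAR to GRCz11, quantified genes with RSEM and deposited TPM values. The annotation release is not given in the sources used here. Groups were taken from the treatment label. The study's own test needs read counts, so limma on the log scale took its place. TPM was divided by each library's median ratio to the geometric mean over the libraries (0.93 to 1.082), 0.1 was added and log2 was taken. The genes that averaged 1 TPM or more (19051 of 32520) were fitted together in limma 3.58.1 (R 4.3.3) with a mean-variance trend in the variance prior and without robust weighting, and p-values were adjusted by Benjamini-Hochberg within each comparison. Genes were apart where the scaled values of 3 pools lay wholly above or below those of the other 3. Sums and shares used deposited TPM and were planned as a description. Exact permutation tests of them (scipy 1.17.1) were added to that plan. The fit was tested on simulated data.

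The alternatives were pseudocounts of 0.5 and 1, no minimum level or a mean of at least 5 TPM, no further scaling, quantile normalization, only the compared groups, a robust prior, no trend, a replicate term, and each pool left out in turn. The proteasome genes, roles and other gene lists were chosen with earlier results of these data known. Listed genes were matched by symbol, or by the human symbol where the table gives that, which can take in paralogues. Described with all pool values were members that passed the test, the member with the highest level of each role, POMP, NFE2L1, nfe2l1b, hsf1 and up to 3 called genes a list. The other genes named, such as PSMG2, PSMF1, PSMB3, PSMB5, psma6l, PSMD2, PSMA6, PSMA8, PSMD4, BACH1, TXNL1 and b2m, were named after their values were seen. Neighbouring genes and synonyms come from a RefSeq table of assembly GRCz12tu, from which no coordinates were used. Promoter and protein sequences were not used here, so a planned motif count was not run, and correlations between genes were left out because the pools form groups. The labels give pools as replicates, and nothing says whether these came from separate clutches, so p-values measure the spread between these pools.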

Additional observations from a re-analysis of the deposited data

Results flagged for a closer look

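The level of PSME4 ENSDARG00000087911 set the injected groups apart. It was higher in SBMO than in SHMO by 1.92 on the log2 scale (limma adjusted p = 0.00641), with each of 3 SBMO pools above each of 3 SHMO pools, so its difference from Ctrl was not of the same size in both groups.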

How the results depend on the processing

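Over the 19 alternatives, 2 to 3 proteasome genes were called in SHMO against Ctrl (3 here), 0 to 2 in SBMO against Ctrl (1 here) and 1 in SBMO against SHMO, and no proteasome gene that passed the test changed direction. Of those that did not pass, 17 of 50, 20 of 50 and 25 of 52 changed sign in at least 1 alternative. In SBMO against Ctrl, the count was 0 with a minimum mean of 5 TPM, where PSMB10 was not tested, and 2 without further scaling and with quantile normalization, where PSME4 ENSDARG00000087911 was added. With each pool left out in turn it was 1 to 2, the 2 being without SBMO 2. Median log2(FC) of the proteasome genes ran from 0.03 to 0.15, 0.00 to 0.16 and -0.09 to 0.05 in the 3 comparisons.

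Correlations of the deviations from group means ran from -0.26 to 0.152 for same-numbered pools and from -0.308 to 0.333 for differently numbered ones. Because deviations sum to 0 within a group, this cannot decide whether same-numbered pools shared a clutch, day or batch. The labels do not say. With the replicate block, 2, 1 and 1 proteasome genes were called, the call of PSMD1 being lost (adjusted p = 0.0807, limma), and 1111, 2902 and 601 genes in all in place of 1695, 3772 and 871. Fitting only the compared groups gave 286 genes in SBMO against SHMO, and a minimum mean of 5 TPM, with fewer genes tested, gave 1032 in SHMO and 2299 in SBMO against Ctrl. With a pool left out, 417 to 2597, 1031 to 4262 and 189 to 1279 genes were called in the 3 comparisons. Sums of scaled TPM, an alternative chosen after seeing the data, kept the direction of the sums of deposited TPM. Because TPM keeps no depth, the counting error of genes near 1 TPM is unknown.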

Other observations

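The summed level of the 10 assembly helpers and base-binding proteins outside the proteasome symbols was 418, 330 and 377 TPM in Ctrl, 378, 423 and 392 TPM in SHMO and 446, 438 and 423 TPM in SBMO. In deposited TPM the SBMO sums lay above the Ctrl sums, and the lowest of them was level with the highest SHMO sum. After the scaling between libraries they were 434.5, 470.7 and 417.6 TPM in SBMO 1, 2 and 3. These lay above the scaled sums of Ctrl, at 351.3 to 386.8 TPM, and of SHMO, at 357.6 to 399.2 TPM. Of the 10 genes, the ubiquitin-binding zinc finger gene zfand5a stood at 28.75 to 43.11 TPM in Ctrl and 32.25, 72.75 and 73.43 TPM in SBMO. The related zfand5b stood at 48.13 to 79.90 TPM in Ctrl and 64.28, 101.62 and 74.36 TPM in SBMO. In SBMO 1, the pool with the highest sum in deposited TPM, both lay within their Ctrl ranges. In SBMO 2, the pool with the highest scaled sum, both lay above their Ctrl ranges in deposited TPM. Neither zfand5a nor zfand5b passed the test in SBMO against Ctrl (limma, adjusted p = 0.123 and 0.138).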
